A study of Mus musculus with 6 samples.

Results

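The 41 genes described here encode enzymes of central carbon metabolism: 18 of glycolysis, 5 of the steps by which pyruvate enters mitochondrial metabolism, 14 of the tricarboxylic acid (TCA) cycle and 4 of the pentose phosphate pathway. They were listed by symbol, with no measured value in the rule, and found in the GENCODE M21 annotation among 54356 genes with a transcript in the data. All 41 passed the filter on low counts and were among the 17852 genes tested. Poly(A) RNA of epididymal white adipose tissue, the fat pad beside the epididymis, was sequenced in 6 libraries. The tissue came from wild-type male C57BL/6N mice aged 20 weeks. The cold group consists of the libraries cold 7, cold 12 and cold 16, and the ctrl group of ctrl 5, ctrl 6 and ctrl 10, each named by its mouse number. The question addressed was how exposure to cold changes RNA in this fat. The treatment text describes 24 h at 4 °C in single cages and stands unchanged on all 6 samples, although 3 of them are labelled ctrl. General housing was at 22 to 24 °C, and the labels give the ctrl mice no housing of their own. The libraries are from separate mice, so p-values measure the spread between these mice.

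Glycolysis turns glucose into pyruvate in the cytosol, and pyruvate is then reduced to lactate by lactate dehydrogenase, oxidised to acetyl-CoA by the pyruvate dehydrogenase complex, or carboxylated to oxaloacetate by pyruvate carboxylase. The TCA cycle oxidises acetyl-CoA in mitochondria and also supplies citrate, which white fat cells export for fatty acid synthesis. The pentose phosphate pathway makes NADPH, which fatty acid synthesis consumes, and cytosolic malate and isocitrate dehydrogenases take part in moving reducing power across the mitochondrial membrane.

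Library totals ranged from 22903050 to 28608052 estimated counts in cold and from 19735167 to 24176464 in ctrl. The 10 adipocyte markers together reached 54370 to 64680 TPM (an abundance scaled for transcript length and depth, so that a library's values have a fixed sum) in cold and 57070 to 62540 TPM in ctrl, so the labelled tissue carried its own markers. The sum hides adipocyte markers that moved in opposite directions. Lep was called higher in cold (log2 fold change 0.61, adjusted p = 0.0439 by edgeR's quasi-likelihood test) and Cfd lower (-0.59, adjusted p = 0.0438). DESeq2 called Lep, Fabp4 and Pnpla2 higher and Cfd lower. By counts scaled to library size, the groups did not overlap for 6 of the 10 (60.0%), beside 23.8% of all genes tested. Markers of other tissues also differed between libraries. By counts scaled to library size (CPM), all 18 annotated motile cilium markers were higher in each cold library than in each ctrl library. By TPM, Tekt2 overlapped, at 5.35 to 8.99 TPM in cold and 3.32 to 6.56 TPM in ctrl. The cilium markers summed to 56.8, 145.7 and 115.7 TPM in cold 7, cold 12 and cold 16, against 25.6, 8.70 and 9.46 TPM in ctrl 5, ctrl 6 and ctrl 10. Epithelial markers summed to 153.3, 257.4 and 228.5 TPM in the same cold libraries, against 66.3, 18.0 and 39.0 TPM in the ctrl libraries. Markers of epididymal and seminal vesicle secretion stood at 364.5 TPM in cold 7 and at 330.0 TPM in ctrl 10, and at 2.14 to 3.09 TPM in the other 4 libraries, with Lcn9, Cst11 and Gpx5 under 0.1 TPM in all 6. Different genes made up these sums, with the epididymal genes Crisp1 at 169.3 TPM and Spink8 at 143.1 TPM leading in cold 7, and the seminal vesicle genes Svs5 at 191.9 TPM and Svs4 at 95.5 TPM leading in ctrl 10. Male germ cell markers summed to 177.9, 171.2 and 12.5 TPM in cold 7, cold 12 and cold 16, and to 2.73 to 15.2 TPM in ctrl. The 12 skeletal muscle markers, a tissue rich in several of these enzymes, overlapped between the groups, at 19.8 to 32.1 TPM in cold and 21.9 to 38.1 TPM in ctrl. The 7 brown or beige adipocyte markers summed to 80.9, 79.1 and 89.9 TPM in cold 7, cold 12 and cold 16, against 66.1, 75.2 and 53.3 TPM in ctrl 5, ctrl 6 and ctrl 10, while Ucp1, which defines those cells, had at most 10 counts in any library. Cox8b, which was not called, gave most of this sum, with a mean of 52.3 TPM. Among the 7, edgeR's quasi-likelihood test called Dio2 alone, higher in cold (log2 fold change 2.64, adjusted p = 0.0252), with 8 counts in each ctrl library. DESeq2 called Dio2 and Ppargc1a, both higher. The 6 endothelial markers summed to 601.4 to 722.4 TPM in cold and 812.0 to 846.1 TPM in ctrl. Of these markers none was called by edgeR's quasi-likelihood test (smallest adjusted p = 0.080), DESeq2 called Tie1 alone (lower), and 4 overlapped between the groups by CPM. The part of such cells in the results below was not tested, and in bulk tissue fewer cells of a type and less RNA per cell cannot be told apart.

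Most of the pathway differed little between the groups. With edgeR's quasi-likelihood test and adjustment by Benjamini and Hochberg over all 17852 genes, 2 of the 41 enzyme genes were higher in cold at an adjusted p under 0.05, the aldolase gene Aldoc and the isocitrate dehydrogenase subunit gene Idh3a. None was lower. Over all genes tested, 415 genes (2.32%) were called higher and 101 (0.566%) lower, 2.89% in either direction, so 2 of 41 enzyme genes was a count near the background. None of the 41 was lower at an unadjusted p under 0.05 either, or by DESeq2. At an unadjusted p under 0.05, 8 enzyme genes (19.5%) were higher in cold, set against 10.6% of all genes higher and 6.99% lower. Among the 4121 tested genes that averaged 50 CPM or more, a level chosen after values were seen, 5.36% were higher and 11.4% lower at that p, and 0.34% were called higher and 1.21% lower. Of the 37 enzyme genes at that level, 7 were higher at that p, none was lower, and Idh3a was called. In order of p the 8 enzyme genes were Aldoc, Idh3a, Eno1, Pdhb, Suclg1, Pgk1, G6pdx and Mdh1. All cold libraries lay above all ctrl libraries for 9 of the 41, those 8 and Pkm, where 12.7% of all genes did, and below them for Suclg2 alone, where 11.0% of all genes did.

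The log2 fold change (cold over ctrl) was above 0 for 29 enzyme genes and below 0 for 12, with a median of 0.08 beside a median of -0.01 over all genes tested. By pathway, the median was 0.11 for the 18 glycolytic genes, 0.09 for the 5 genes of pyruvate entry, -0.01 for the 14 TCA cycle genes and 0.18 for the 4 pentose phosphate genes. The glycolytic genes were above 0 in 15 cases and below in 3, and the TCA cycle genes in 6 and 8. The differences were small: the approximate 95% interval of the fold change, 1.96 standard errors either way, lay within 1.5-fold for 37 of the 41 genes and within 1.25-fold for 22. Outside the 1.5-fold range were Hk3, Aldoc, Eno1 and Idh3a. These intervals are narrower than the test implies, so 37 and 22 are upper limits. The Pfkl interval of 0.02 to 0.42 on the log2 scale, for example, excluded 0, though its unadjusted p was 0.0608 by edgeR's quasi-likelihood test.

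**Figure D1:**
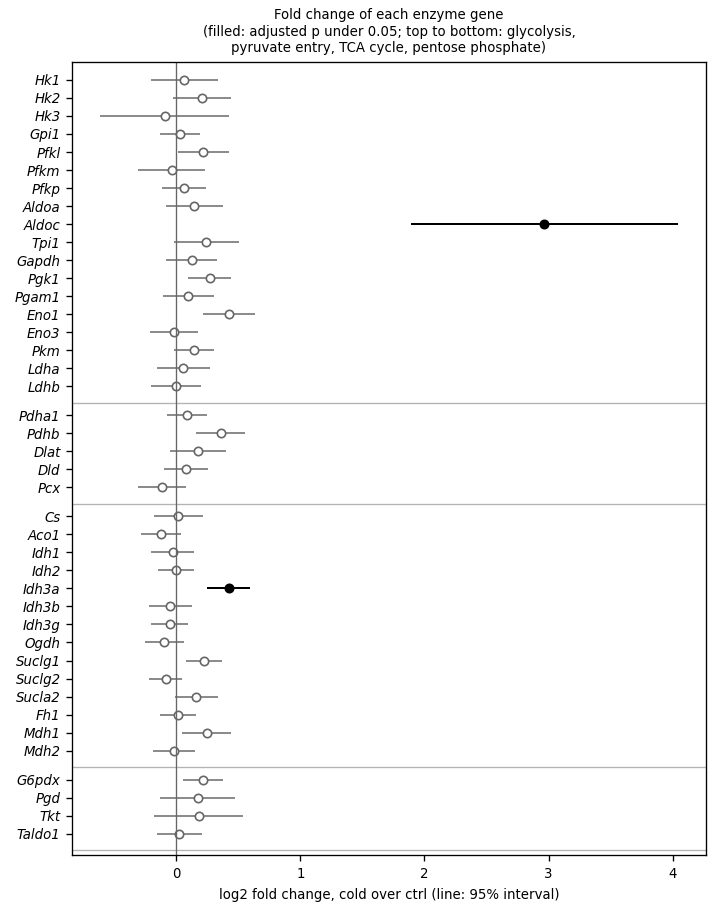
Log2 fold change of cold over ctrl for each of the 41 enzyme genes (horizontal axis), with lines for the approximate 95% interval and filled points for genes called at an adjusted p under 0.05. Aldoc stands far to the right at 2.97, Idh3a at 0.42 is the other filled point, and the rest lie between -0.12 and 0.42.

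Levels between genes are compared here in TPM, summed over all transcripts of a gene, protein-coding or not. Protein-coding transcripts gave 65.5 to 79.2% of Gapdh TPM. The most abundant enzyme transcripts were those of Aldoa (aldolase A, which splits fructose 1,6-bisphosphate), with a mean of 1491 TPM over the 6 libraries, Gapdh (glyceraldehyde-3-phosphate dehydrogenase, the oxidising step of glycolysis) at 918.4 TPM and Ldha (lactate dehydrogenase A, pyruvate to lactate) at 768.5 TPM. A group from Taldo1 at 479.6 TPM to Mdh2 at 345.1 TPM followed, which also held Pcx, Eno1, Tkt, Tpi1 and Mdh1 and in which the ranges of neighbours overlapped. The least abundant were Hk3 at 4.46 TPM and Aldoc at 2.82 TPM. Down this order, the ranges of neighbours over the 6 libraries were apart after Aldoa, Ldha, Ldhb, Hk2, Suclg2 and Pfkm, and elsewhere neighbours did not differ beyond the spread of their libraries. The summed level of all 41 genes was 10320, 10310 and 10690 TPM in cold 7, cold 12 and cold 16, against 9861, 10470 and 9004 TPM in ctrl 5, ctrl 6 and ctrl 10. The groups overlapped for this sum and for the sum of each of the 4 pathways, as glycolysis shows with 5353 to 5728 TPM in cold and 4605 to 5469 TPM in ctrl.

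**Figure D2:**
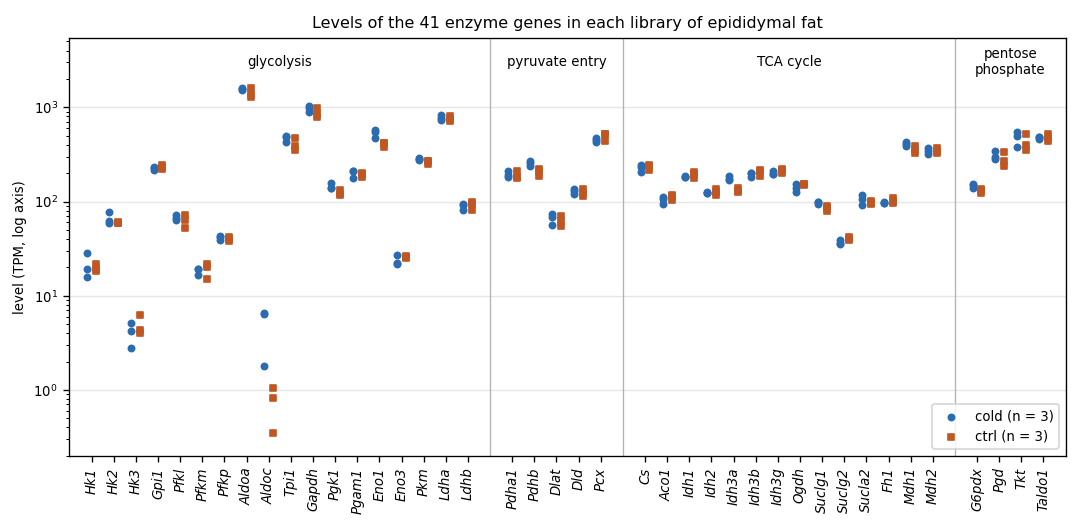
Level of each enzyme gene in TPM on a log axis, by pathway, with 3 cold libraries (circles, left) and 3 ctrl libraries (squares, right) per gene. Aldoa, Gapdh and Ldha lead at 768.5 TPM or more on average, and Aldoc, the lowest, is the gene whose points separate most.

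Hexokinases phosphorylate glucose on entry. Hk2, the insulin-responsive form of muscle and fat, had 233.1, 192.5 and 190.1 CPM (counts scaled to a common library size, corrected by TMM) in cold 7, cold 12 and cold 16, against 177.5, 156.2 and 199.7 CPM in ctrl 5, ctrl 6 and ctrl 10. The highest ctrl library lay among the cold ones, and the log2 fold change was 0.21 (SE 0.12, adjusted p = 0.423 by edgeR's quasi-likelihood test). Hk2 gave 63.8 to 80.5% of the TPM of the 3 hexokinase genes, with Hk1, the form of most tissues, next and Hk3, best known in blood cells, last at 2.87 to 7.36%. Neither Hk1 (0.07, SE 0.14) nor Hk3 (-0.09, SE 0.26) passed the test. Gpi1, which isomerises glucose 6-phosphate, differed by 0.03 (SE 0.08).

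Phosphofructokinase makes the committed step. Pfkl, the liver-type subunit, was its most abundant gene at 48.7 to 56.2% of the family's TPM, ahead of the platelet type Pfkp at 30.8 to 37.4% and the muscle type Pfkm at 13.0 to 16.6%. Pfkl had 157.3, 157.6 and 170.8 CPM in cold 7, cold 12 and cold 16, against 136.6, 158.5 and 122.1 CPM in ctrl 5, ctrl 6 and ctrl 10. One ctrl library, ctrl 6, lay above 2 of the cold libraries, and Pfkl did not pass the test (log2 fold change 0.22, SE 0.10, adjusted p = 0.318 by edgeR's quasi-likelihood test). The subunit shares of all 3 genes overlapped between the groups.

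The aldolase genes were far apart in level and in difference. Aldoa had 1264, 1291 and 1437 CPM in cold 7, cold 12 and cold 16, against 1133, 1379 and 1098 CPM in ctrl 5, ctrl 6 and ctrl 10, with ctrl 6 above 2 cold libraries (log2 fold change 0.15, SE 0.11). Aldoc, the aldolase isozyme best known from brain, had 53, 196 and 225 estimated counts in the cold libraries and 23, 20 and 8 in the ctrl libraries. In CPM these were 2.32, 7.71 and 7.86 in cold 7, cold 12 and cold 16, against 0.950, 0.894 and 0.411 in ctrl 5, ctrl 6 and ctrl 10. No ctrl library reached a cold one, but cold 7 lay nearer to the ctrl libraries than to cold 12 and cold 16. Aldoc rose by 2.97 on the log2 scale (SE 0.54), 7.81-fold (adjusted p = 0.0411 by edgeR's quasi-likelihood test). Beside Aldoa its level was low, at 0.114, 0.420 and 0.405% of the TPM of Aldoa and Aldoc in cold 7, cold 12 and cold 16, against 0.0597, 0.0654 and 0.0271% in ctrl 5, ctrl 6 and ctrl 10.

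The order of libraries for Aldoc followed that of the motile cilium and epithelial markers given above, with cold 12 and cold 16 highest and cold 7 lowest within cold. By CPM, ctrl 5 was the highest ctrl library and cold 7 the lowest cold library in 17 of the 18 tested cilium markers and also in Aldoc, where ctrl 5 and ctrl 6 were close and ctrl 6 was the higher by TPM. Of the 41 enzyme genes 2 (4.88%) had that order, Aldoc and Suclg2, beside 14.8% of all genes tested. Whether ciliated or epithelial cells contributed the Aldoc RNA was not tested. By edgeR's quasi-likelihood test the Aldoc call held without cold 7 (adjusted p = 0.00361) and without cold 7 and ctrl 10 together (0.00508), and it was lost when any 1 of the other 5 libraries was left out (0.0719 to 0.148), without the low-count filter (0.0795) and with the transcript length offset (0.0595). Over all alternatives its adjusted p ran from 7.86e-07 with DESeq2 to 0.148, and the fold change was positive in each.

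**Figure D3:**
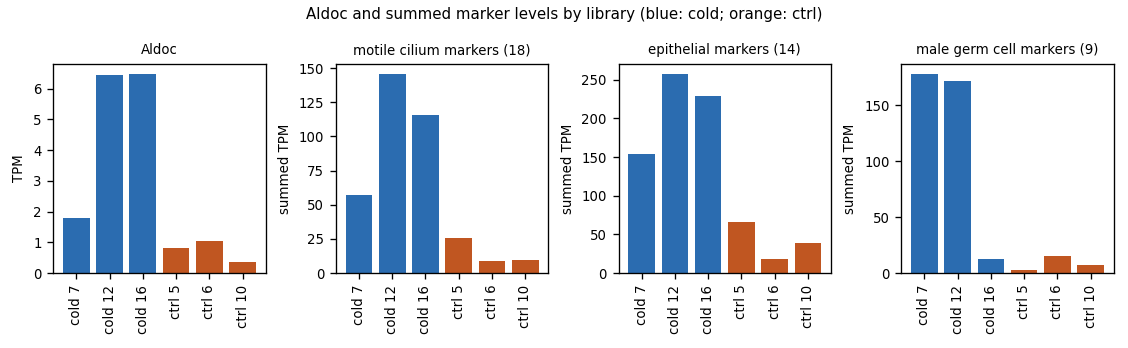
Bars give the Aldoc level in TPM and the summed TPM of motile cilium, epithelial and male germ cell markers in each library, cold in blue on the left and ctrl in orange on the right. Aldoc, the cilium sum and the epithelial sum are highest in cold 12 and cold 16, while the germ cell sum is high in cold 7 and cold 12.

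Aldoc lies on chromosome 11 from 78322968 to 78327781 on the plus strand (GRCm38). Its promoter window is shown because Aldoc was the enzyme gene with the largest fold change and because the letters of a hypoxia response core occur in it. The window runs from 250 bases before to 50 bases after the RefSeq start, chr11:78323948-78324247 on the plus strand of GRCm38.p6. The start used by RefSeq lies 2 bases from that of Aldoc-202, the most abundant Aldoc transcript. Capitals mark the match to GCGTG, which lies on the minus strand and so reads CACGC.
Aldoc promoter: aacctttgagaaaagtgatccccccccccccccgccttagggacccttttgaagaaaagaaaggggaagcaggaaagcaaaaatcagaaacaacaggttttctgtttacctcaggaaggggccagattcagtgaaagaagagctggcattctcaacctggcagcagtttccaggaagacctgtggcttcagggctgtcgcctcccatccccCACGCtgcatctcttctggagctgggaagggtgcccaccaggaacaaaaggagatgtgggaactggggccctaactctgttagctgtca
RefSeq promoter windows were at hand for 40 of the 41 genes, 59 windows in all. On either strand, GCGTG occurred in 55.9% of them and in 32.4% of all 32851 windows, and ACGTG in 40.7% and 19.6%. The E-box CACGTG, which contains ACGTG, occurred in 10.2% and 7.15%, the GC box GGGCGG in 59.3% and 35.7%, and TATAAA in none of the 59 and in 13.6% of all. The enzyme genes' windows were also richer in G and C, with a median of 60.0% beside 52.7%. These shares describe letters in the windows, not binding.

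In the lower arm of glycolysis, Eno1 and Pgk1 had the smallest p after Aldoc. Eno1 encodes enolase 1, which makes phosphoenolpyruvate, and had 625.6, 675.2 and 771.0 CPM in cold 7, cold 12 and cold 16, against 530.7, 542.5 and 470.7 CPM in ctrl 5, ctrl 6 and ctrl 10. Every cold library lay above every ctrl library, with 0.42 as log2 fold change (SE 0.10), and the adjusted p of 0.0693 by edgeR's quasi-likelihood test missed the threshold. Eno1 passed it with DESeq2 (adjusted p = 0.00107), without the low-count filter (0.0210) and without cold 7 (0.0356), within a range of 0.00107 to 0.201 over all alternatives. Eno1 gave 95.6, 95.2 and 96.4% of the TPM of Eno1 and Eno3 in cold 7, cold 12 and cold 16, against 94.1, 94.4 and 93.7% in ctrl 5, ctrl 6 and ctrl 10. The rest came from Eno3, the muscle enolase, which differed by -0.02 (SE 0.09). Its near copy Eno1b was listed at 0.418 to 0.856 TPM in cold and 0.0767 to 0.312 TPM in ctrl.

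Pgk1, phosphoglycerate kinase, an ATP-producing step, had 184.3, 161.1 and 174.6 CPM in cold 7, cold 12 and cold 16, against 137.0, 156.1 and 138.3 CPM in ctrl 5, ctrl 6 and ctrl 10. All cold libraries were higher, but ctrl 6 came close to cold 12, and the log2 fold change was 0.27 (SE 0.08, adjusted p = 0.133 by edgeR's quasi-likelihood test). Tpi1, Gapdh, Pgam1, Ldha and Ldhb overlapped between the groups. Tpi1, triosephosphate isomerase, ran from 442.0 to 542.2 CPM in cold and from 372.0 to 499.5 CPM in ctrl, and Gapdh from 584.4 to 658.1 CPM in cold and from 527.6 to 636.8 CPM in ctrl. Pgam1, phosphoglycerate mutase, ran from 198.0 to 253.2 CPM in cold and from 208.5 to 225.0 CPM in ctrl. Ldha had 724.2, 682.3 and 841.0 CPM in cold 7, cold 12 and cold 16, against 684.8, 782.0 and 691.7 CPM in ctrl 5, ctrl 6 and ctrl 10. It gave 88.6 to 90.3% of the TPM of Ldha and Ldhb, the heart-type subunit, and neither passed the test (log2 fold changes 0.06, SE 0.10, and 0.00, SE 0.10).

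Pkm encodes pyruvate kinase, the last ATP-producing step, and lies on chromosome 9 from 59656368 to 59679375 on the plus strand (GRCm38). It had 474.1, 440.0 and 480.7 CPM in cold 7, cold 12 and cold 16, against 417.2, 438.4 and 406.5 CPM in ctrl 5, ctrl 6 and ctrl 10. The cold libraries lay above the ctrl libraries by a narrow margin, and the log2 fold change was 0.14 (SE 0.08, adjusted p = 0.399 by edgeR's quasi-likelihood test). Alternative versions of its exon 9, used 1 at a time, give the M1 enzyme of muscle and brain and the M2 enzyme of growing and many adult tissues. The M1 exon (chr9:59675029-59675195) is in Pkm-202 and the M2 exon (chr9:59675568-59675734) in Pkm-201, both on the plus strand and read from M21 on GRCm38. Both are shown because they are what separates the transcripts counted here. Each is 167 nt long, they share 103 bases (61.7%), and capitals mark the 64 bases at which they differ.
Pkm M1 exon: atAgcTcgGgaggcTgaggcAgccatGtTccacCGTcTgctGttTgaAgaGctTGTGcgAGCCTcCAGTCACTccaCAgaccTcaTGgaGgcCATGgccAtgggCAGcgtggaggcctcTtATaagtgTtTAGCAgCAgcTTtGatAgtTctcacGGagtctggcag
Pkm M2 exon: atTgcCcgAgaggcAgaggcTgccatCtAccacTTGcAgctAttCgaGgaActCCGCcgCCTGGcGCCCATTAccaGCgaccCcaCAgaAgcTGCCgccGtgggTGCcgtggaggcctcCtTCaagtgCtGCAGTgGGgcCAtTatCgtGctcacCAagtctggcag
The M2 transcript Pkm-201 was the main one, at 231.4, 210.7 and 225.6 TPM in cold 7, cold 12 and cold 16, against 210.2, 215.3 and 194.5 TPM in ctrl 5, ctrl 6 and ctrl 10. The M1 transcript Pkm-202 had 54.9, 60.6 and 59.1 TPM in the cold libraries, against 54.4, 49.9 and 55.8 TPM in the ctrl libraries. The retained-intron transcript Pkm-203, which also holds the M1 exon, had 1.02 TPM in cold 12 and was listed at 0 in the other 5 libraries. With it, M1 made up 19.2, 22.6 and 20.8% of M1 and M2 together in cold 7, cold 12 and cold 16, against 20.6, 18.8 and 22.3% in ctrl 5, ctrl 6 and ctrl 10. The groups overlapped, with means of 20.8% ± 1.72 in cold and 20.6% ± 1.74 in ctrl (SD, n = 3 each). The difference of 0.29 percentage points had p = 0.70 by a two-sided exact permutation test, in which 3 against 3 libraries cannot go below 0.10. It lay between -0.60 and 1.16 points when single libraries were left out, so a shift of several points was not seen in either direction. The edgeR test of transcript usage gave Pkm an adjusted p of 1.0, where 95 of 9654 genes (0.984%) were called.

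**Figure D4:**
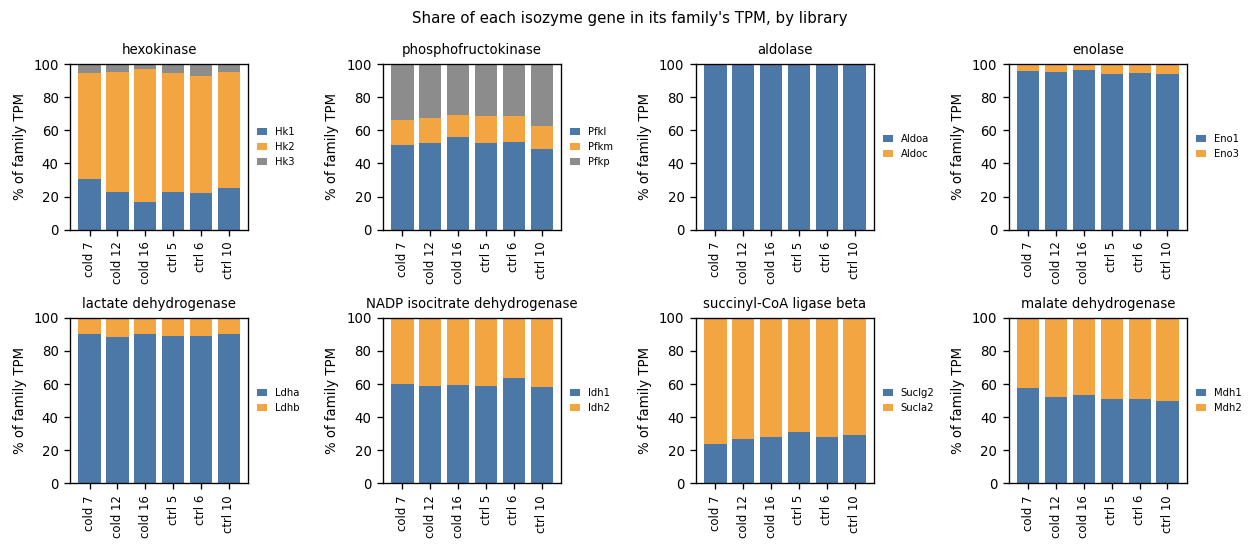
Stacked bars give the share of each isozyme gene in the summed TPM of the genes named in its panel, in percent, for the 3 cold libraries on the left and the 3 ctrl libraries on the right of each panel. Hk2, Aldoa, Eno1 and Ldha lead their families in all 6 libraries, and the Eno1 and Mdh1 shares are higher in each cold library than in each ctrl library.

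At the entry of pyruvate, 1 of 5 genes had an unadjusted p under 0.05 and none was called. Pdhb, the beta subunit of the first enzyme of the pyruvate dehydrogenase complex, had 231.6, 211.9 and 259.0 CPM in cold 7, cold 12 and cold 16, against 189.2, 193.1 and 166.0 CPM in ctrl 5, ctrl 6 and ctrl 10. Again no library overlapped (log2 fold change 0.36, SE 0.10), and the adjusted p was 0.0946 by edgeR's quasi-likelihood test, with a range of 0.0129 (DESeq2) to 0.251 over the alternatives. Without the low-count filter Pdhb also passed, at 0.0428. Its partner Pdha1, the alpha subunit of the same enzyme, had 372.0, 339.9 and 356.3 CPM in the cold libraries, against 359.7, 324.7 and 321.6 CPM in the ctrl libraries, which overlap (0.09, SE 0.08). The TPM ratio of Pdhb to Pdha1 was 1.21, 1.24 and 1.46 in cold 7, cold 12 and cold 16, against 1.06, 1.19 and 1.01 in ctrl 5, ctrl 6 and ctrl 10. Dlat, the acetyltransferase core, had 130.2, 145.7 and 157.2 CPM in the cold libraries, against 123.5, 146.5 and 113.8 CPM in the ctrl libraries. Dld, the dehydrogenase subunit that the complex shares with others, ran from 205.0 to 218.2 CPM in cold and from 186.3 to 223.0 CPM in ctrl. Both overlapped between the groups. Pcx, pyruvate carboxylase, which makes oxaloacetate and is abundant in fat, had 1339, 1251 and 1258 CPM in cold 7, cold 12 and cold 16, against 1431, 1477 and 1256 CPM in ctrl 5, ctrl 6 and ctrl 10. The groups overlapped, and the log2 fold change was -0.11 (SE 0.09, adjusted p = 0.608 by edgeR's quasi-likelihood test).

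In the TCA cycle the difference was at NAD-dependent isocitrate dehydrogenase, an enzyme built of an alpha, a beta and a gamma subunit. Idh3a, the alpha subunit that carries the catalytic site, lies on chromosome 9 from 54586334 to 54604661 on the plus strand (GRCm38). It had 220.9, 253.9 and 245.1 CPM in cold 7, cold 12 and cold 16, against 171.4, 194.1 and 172.1 CPM in ctrl 5, ctrl 6 and ctrl 10. All cold libraries lay above all ctrl libraries. Idh3a rose by 0.42 on the log2 scale (SE 0.09), 1.34-fold (adjusted p = 0.0430 by edgeR's quasi-likelihood test). Idh3b, the beta subunit, had 166.0, 182.9 and 186.8 CPM in the cold libraries, against 181.9, 200.1 and 171.7 CPM in the ctrl libraries (-0.05, SE 0.09). Idh3g, the gamma subunit, had 149.7, 162.1 and 157.1 CPM in the cold libraries, against 160.8, 172.4 and 153.6 CPM in the ctrl libraries (-0.05, SE 0.07). The alpha subunit transcript was thus set apart from those of its partners. In TPM, Idh3a over Idh3g was 0.871, 0.878 and 0.863 in cold 7, cold 12 and cold 16, against 0.588, 0.634 and 0.622 in ctrl 5, ctrl 6 and ctrl 10, and Idh3a over Idh3b ran from 0.831 to 0.957 in cold and from 0.603 to 0.674 in ctrl. The ratio of Idh3b to Idh3g overlapped, at 0.910 to 1.04 in cold and 0.923 to 0.975 in ctrl. These ratios were computed after the Idh3a values were seen and were given no test.

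**Figure D5:**
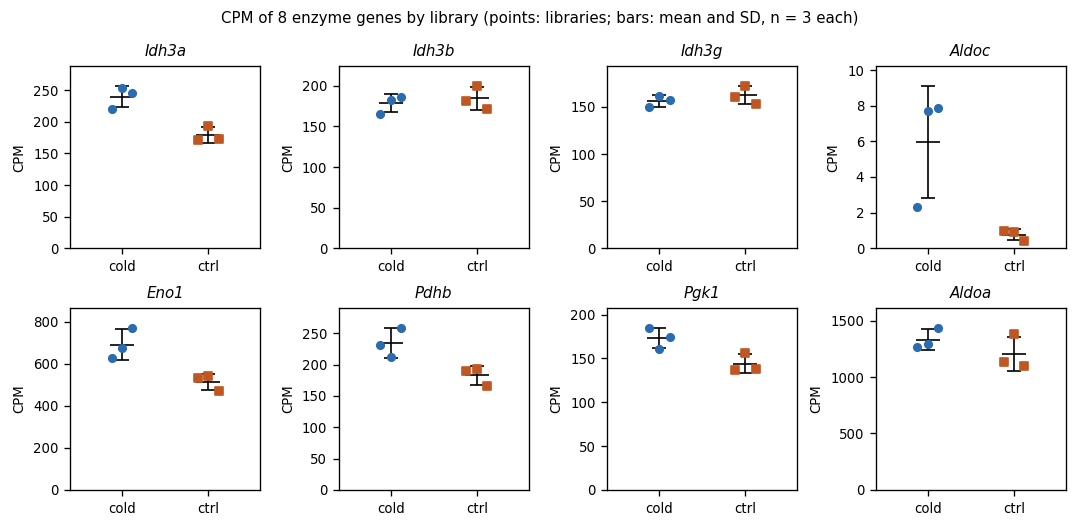
CPM of 8 enzyme genes in each library, cold on the left and ctrl on the right of each panel, with bars for the mean and SD (n = 3 each). Idh3a separates between the groups while Idh3b and Idh3g overlap, and Aldoc separates with cold 7 at 2.32 CPM between the ctrl libraries and the other cold libraries.

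Part of the Idh3a signal was assigned to a transcript not annotated as protein-coding. Idh3a-203, annotated as a retained intron, had 75.6, 64.0 and 57.1 TPM in cold 7, cold 12 and cold 16, against 43.3, 46.5 and 43.2 TPM in ctrl 5, ctrl 6 and ctrl 10. The protein-coding Idh3a-205 had 52.4, 71.9 and 57.8 TPM in the cold libraries, against 41.9, 50.7 and 45.4 TPM in the ctrl libraries. The protein-coding Idh3a-201 had 42.4, 44.2 and 48.0 TPM in the cold libraries, against 41.6, 38.8 and 35.9 TPM in the ctrl libraries. All 3 transcripts were higher in each cold library than in each ctrl library, and none was called on its own (adjusted p = 0.221, 0.445 and 0.573 by edgeR's quasi-likelihood test over transcripts). Protein-coding transcripts gave 54.9, 62.3 and 62.8% of Idh3a TPM in cold 7, cold 12 and cold 16, against 65.0, 63.9 and 64.3% in ctrl 5, ctrl 6 and ctrl 10. When protein-coding transcripts alone were summed, an alternative added after the data were seen, the Idh3a fold change was 0.36 with an adjusted p of 0.125. The call was also lost without any single library other than cold 7 (adjusted p of 0.0933 to 0.151) and without cold 7 and ctrl 10 together (0.0517), within a range over all alternatives of 0.000209 (DESeq2) to 0.151.

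Citrate synthase, Cs, which admits acetyl-CoA to the cycle, had 377.9, 451.2 and 453.7 CPM in cold 7, cold 12 and cold 16, against 421.7, 451.2 and 394.7 CPM in ctrl 5, ctrl 6 and ctrl 10. The groups overlapped almost entirely (log2 fold change 0.02, SE 0.10). Aco1, the cytosolic aconitase that doubles as an iron sensor, ran from 250.3 to 280.9 CPM in cold and from 277.4 to 300.0 CPM in ctrl, and its log2 fold change of -0.12 (SE 0.08) was the lowest among the 41. The NADP-dependent isocitrate dehydrogenases overlapped between the groups. Idh1, the cytosolic form, had 265.2, 256.1 and 283.3 CPM in the cold libraries, against 270.7, 297.8 and 252.9 CPM in the ctrl libraries, and gave 58.4 to 63.7% of the TPM of Idh1 and Idh2. Idh2, the mitochondrial form, differed by 0.00 (SE 0.07). Ogdh, the first subunit of the oxoglutarate dehydrogenase complex, ran from 364.7 to 405.0 CPM in cold and from 398.7 to 413.2 CPM in ctrl (-0.10, SE 0.08).

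Succinyl-CoA ligase joins the alpha subunit Suclg1 to a GTP-specific beta subunit, Suclg2, or an ATP-specific one, Sucla2. Suclg1 had 97.9, 96.9 and 98.7 CPM in cold 7, cold 12 and cold 16, against 83.0, 88.9 and 79.1 CPM in ctrl 5, ctrl 6 and ctrl 10. The groups did not overlap, and the log2 fold change was 0.23 (SE 0.07, adjusted p = 0.128 by edgeR's quasi-likelihood test). Suclg2 had 63.9, 68.0 and 67.0 CPM in the cold libraries, against 71.4, 69.5 and 70.1 CPM in the ctrl libraries, the only enzyme gene with every cold library below every ctrl library (-0.08, SE 0.06, adjusted p = 0.568). Sucla2 had 141.1, 122.4 and 120.3 CPM in the cold libraries, against 110.1, 120.3 and 112.6 CPM in the ctrl libraries (0.16, SE 0.08), and gave 69.2 to 76.4% of beta subunit TPM. Fumarase, Fh1, overlapped between the groups at 112.9 to 118.9 CPM in cold and 108.7 to 122.2 CPM in ctrl.

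Malate dehydrogenase has a cytosolic form, Mdh1, and a mitochondrial form, Mdh2. Mdh1 had 484.3, 480.2 and 505.4 CPM in cold 7, cold 12 and cold 16, against 389.0, 470.9 and 380.7 CPM in ctrl 5, ctrl 6 and ctrl 10. Every cold library lay above every ctrl library, ctrl 6 being close to them, and the log2 fold change was 0.25 (SE 0.10, adjusted p = 0.237 by edgeR's quasi-likelihood test). Mdh2 ran from 268.0 to 294.1 CPM in cold and from 274.6 to 311.5 CPM in ctrl (-0.01, SE 0.08). The cytosolic form gave 57.5, 52.3 and 53.4% of the TPM of Mdh1 and Mdh2 in cold 7, cold 12 and cold 16, against 50.8, 51.2 and 50.0% in ctrl 5, ctrl 6 and ctrl 10. The share was higher in each cold library, by least in cold 12.

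The 4 pentose phosphate genes all had log2 fold changes above 0, and none was called by edgeR's quasi-likelihood test or DESeq2, with 1 at an unadjusted p under 0.05. G6pdx, glucose-6-phosphate dehydrogenase, the NADPH-producing entry step, had 265.6, 254.3 and 256.4 CPM in cold 7, cold 12 and cold 16, against 204.0, 236.4 and 226.9 CPM in ctrl 5, ctrl 6 and ctrl 10. The groups did not overlap (log2 fold change 0.22, SE 0.08, adjusted p = 0.188 by edgeR's quasi-likelihood test). Pgd, the second NADPH-producing step, had 424.0, 440.8 and 532.2 CPM in the cold libraries, against 382.8, 504.5 and 352.5 CPM in the ctrl libraries. Tkt, transketolase, had 713.6, 559.4 and 833.6 CPM in the cold libraries, against 748.2, 589.0 and 521.8 CPM in the ctrl libraries, and with an SE of 0.18 it was among the most variable members. Both overlapped widely between the groups, as did Taldo1, transaldolase, at 370.9 to 400.1 CPM in cold and 354.6 to 424.2 CPM in ctrl. Most Tkt TPM was assigned to Tkt-209, annotated as a processed transcript, and protein-coding Tkt transcripts gave only 15.7 to 17.8% of the gene's TPM in the 6 libraries. The retained-intron transcript Tkt-208, named after its values were seen, had 51.5, 16.1 and 23.5 TPM in cold 7, cold 12 and cold 16, against 13.6, 9.39 and 5.74 TPM in ctrl 5, ctrl 6 and ctrl 10, with no overlap and an adjusted p of 0.461 by edgeR's quasi-likelihood test over transcripts.

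Other genes of the same pathways, listed by function with earlier results of these data known, gave at most 1 call per list by edgeR's quasi-likelihood test. Over all genes tested, that test called 2.89%. DESeq2 called 2 further glycolysis genes, Pgam2 and Slc16a3, and 2 further TCA cycle genes, Mdh1b and Ogdhl, all higher. It called 1 further pentose phosphate gene, H6pd, lower. Over all 17852 genes DESeq2 called 1340. Of 14 further glycolysis genes tested, 1 was called higher and none lower, with a median log2 fold change of 0.19. At an unadjusted p under 0.05, 6 of the 14 (42.9%) were higher and none lower, beside 17.6% of all genes in either direction. The groups did not overlap for 6 of the 14 (42.9%), beside 23.8% of all genes. The called gene was Slc16a3, a monocarboxylate transporter that exports lactate, at 4.80, 4.79 and 4.02 TPM in cold 7, cold 12 and cold 16, against 2.58, 2.21 and 2.86 TPM in ctrl 5, ctrl 6 and ctrl 10. The groups did not overlap, and Slc16a3 rose by 0.98 on the log2 scale (SE 0.19, adjusted p = 0.0411 by edgeR's quasi-likelihood test). Its call was lost with the transcript length offset (adjusted p = 0.0607), with protein-coding transcripts only (0.0550), and without cold 12, cold 16, ctrl 6 or ctrl 10, within a range of 0.00208 to 0.154. By CPM, Slc16a3 also had the library order of the cilium markers, but its cold libraries were close, at 5.78, 6.33 and 6.08 CPM in cold 7, cold 12 and cold 16. By TPM, Slc16a3 did not have that order. Pfkfb4, an isoform of the enzyme that makes the phosphofructokinase activator, had the next smallest p, at 12.6 to 16.0 TPM in cold and 11.0 to 12.9 TPM in ctrl (0.40, SE 0.12, adjusted p = 0.127). The other isoforms, named after their values were seen, had log2 fold changes below 0. Pfkfb3, far more abundant at a mean of 370.3 TPM, differed by -0.30 (SE 0.14, adjusted p = 0.323 by edgeR's quasi-likelihood test). Pfkfb1 differed by -0.12 (SE 0.08) and Pfkfb2 by -0.002 (SE 0.17).

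The pyruvate kinase gene of liver and red cells, Pklr, named here after its values were seen, had cold 7 lowest within cold and ctrl 5 highest within ctrl, as the cilium markers did. Pklr had 3.54, 11.6 and 13.3 TPM in cold 7, cold 12 and cold 16, against 0.891, 0.0265 and 0 TPM in ctrl 5, ctrl 6 and ctrl 10. It did not pass the test with all 6 libraries (adjusted p = 0.128) and did without ctrl 5 (0.0237 by edgeR's quasi-likelihood test), within a range of 4.71e-05 to 0.302 over the alternatives. With 1.2 counts in ctrl 6 and 0 in ctrl 10, Pklr passed the low-count filter only through its cold libraries. Which cells this transcript came from was not tested.

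None of 10 further genes of pyruvate entry was called by edgeR's quasi-likelihood test or DESeq2, though 1 was higher and 1 lower at an unadjusted p under 0.05. The smallest p belonged to Pdp1, the phosphatase that activates pyruvate dehydrogenase, at 7.71 to 10.9 TPM in cold and 12.0 to 12.7 TPM in ctrl (log2 fold change -0.33, SE 0.11, adjusted p = 0.143 by edgeR's quasi-likelihood test). Next was Pdk1, a kinase that inactivates it, at 14.1 to 16.7 TPM in cold and 12.4 to 14.5 TPM in ctrl (0.18, SE 0.07, adjusted p = 0.233). Of 12 further TCA cycle genes 1 was called, Mdh1b, a malate dehydrogenase relative, with 13, 26 and 32 estimated counts in cold 7, cold 12 and cold 16, against 4, 1 and 0 in ctrl 5, ctrl 6 and ctrl 10 (log2 fold change 3.51, SE 0.70, adjusted p = 0.0411 by edgeR's quasi-likelihood test). All its ctrl counts were under the low-count filter's minimum of 10, so Mdh1b was tested only through its cold libraries. Mdh1b had the library order of the cilium markers, and its call was lost with protein-coding transcripts only (0.0600) and without cold 12, cold 16, ctrl 6 or ctrl 10, within a range of 0.00344 to 0.155. Ogdhl, a relative of Ogdh, had 2.39, 6.80 and 6.93 TPM in the cold libraries, against 0.970, 1.90 and 0.738 TPM in the ctrl libraries (2.17, SE 0.54, adjusted p = 0.0996). Ogdhl passed with DESeq2 (2.25e-05), without cold 7 (0.0192), without ctrl 5 and cold 7 (0.0268) and without cold 7 and ctrl 10 (0.0280), within a range of 2.25e-05 to 0.299 over all alternatives. The remaining subunits of the cycle, such as those of succinate dehydrogenase, did not pass the test.

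Of 5 further pentose phosphate genes tested 1 was called, and it was lower. H6pd, the hexose-6-phosphate dehydrogenase that makes NADPH inside the endoplasmic reticulum, had 167.7, 189.3 and 161.9 TPM in cold 7, cold 12 and cold 16, against 234.8, 225.0 and 247.8 TPM in ctrl 5, ctrl 6 and ctrl 10. The groups did not overlap, and H6pd fell by 0.42 on the log2 scale (SE 0.09, adjusted p = 0.0430 by edgeR's quasi-likelihood test). It stood opposite to its cytosolic counterpart G6pdx, whose difference, as given above, missed the threshold. The H6pd call was lost when any single library was left out (adjusted p of 0.0536 to 0.152), within a range over all alternatives of 3.1e-05 (DESeq2) to 0.152, with a negative fold change in each. Next in p were Rpia, ribose-5-phosphate isomerase (0.21, SE 0.13), and Pgls, the lactonase of the oxidative branch (0.13, SE 0.08).

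Testis isozymes and near copies of the members, which could share reads with them, were listed with their levels, and the sharing itself was not measured. Of 9 such genes 3 were tested, Gapdhs, Eno4 and Eno1b, and none was called by edgeR's quasi-likelihood test, all 3 being higher at an unadjusted p under 0.05, while DESeq2 called 1, Eno4. Eno4 and Eno1b had fewer than the filter's 10 counts in ctrl 6 and ctrl 10 and were tested only through their cold libraries. The direction of these 2 genes was thus largely set by the filter. Ldhc, the testis lactate dehydrogenase, had 17.6, 5.15 and 0.157 TPM in cold 7, cold 12 and cold 16, against 0, 0.158 and 0.125 TPM in ctrl 5, ctrl 6 and ctrl 10, and Pgk2, the testis phosphoglycerate kinase, had 3.37, 1.78 and 0.0640 TPM in the cold libraries and at most 0.0884 TPM in ctrl. Gapdhs, Ldhc and Pgk2 are themselves on the list of 9 male germ cell markers. M21 gives the symbol Aldoa to a further gene, which had at most 16.9 counts in a library and was left out. Pseudogene copies were sought by symbol alone, as a member's symbol followed by a ps or rs suffix. The 11 found, of Aldoa, Gapdh, Ldha, Pgam1 and Pgk1, were listed at 0.570 TPM or less in every library and none was tested. Pseudogenes under other symbols were not searched for. Reads that Salmon shared between a member and an unlisted copy cannot be told apart.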

How the data were processed

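RNA of 6 epididymal fat samples (3 cold, 3 ctrl) was sequenced as strand-specific paired-end libraries with 50 nt reads, per the labels' protocols. The submitters' processing notes name bcl2fastq, cutadapt, Salmon and GRCm38, without versions. Each library's table, as the authors deposited it, lists 140658 transcripts with estimated counts (not whole numbers), TPM and effective lengths, per the file headers. TPM as deposited keeps no depth and was used for levels and shares only.

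Transcripts were joined to GENCODE M21 (139921 by identifier and version, 140137 in all). The 521 others, with 0.124 to 0.394% of a library's counts, were left out. Estimated counts were summed per gene and rounded. In R 4.3.3 with edgeR 4.0.16, genes passing filterByExpr (minimum count 10 in 3 libraries, total 15) were scaled by TMM and compared by glmQLFit with robust estimation and glmQLFTest, two-sided, with no covariate. Benjamini-Hochberg adjustment ran over 17852 genes, with calls under 0.05. SEs come from the F statistic. Transcripts were tested likewise, and usage by diffSpliceDGE. How reads were shared among transcripts adds uncertainty that no p-value includes. Libraries of the same group differed by more than sampling noise, with chi-square values of 11.1 to 29.9 per degree of freedom, and none was merged. No label gives a batch or date.

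The steps were tested on simulated data. The members, lists and tests were chosen with earlier results of these data known. All 41 genes are accounted for. Values in every library are given for called genes, the 3 members of each pathway with the smallest p, the leading isozyme of each family and the entry steps (Pkm, Pcx, Pdha1, Cs and G6pdx), with the other subunits of their enzymes added after values were seen. Of other pathway genes, the called ones and those with the smallest p are named, and some results on these genes are not reported here. Results were recomputed with RLE size factors, without the low-count filter, with a transcript length offset, with DESeq2 1.42.0, without single libraries, without ctrl 5 and cold 7 together and, added after the data were seen, protein-coding transcripts only and leaving out cold 7 and ctrl 10 together.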

Additional observations from a re-analysis of the deposited data

How the results depend on the processing

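No paired analysis was possible because the mouse numbers differ between the groups. The count of enzyme genes higher in cold, 2 with all libraries, was 1 with the transcript length offset, 4 with DESeq2, 1 with protein-coding transcripts only and 1 without cold 7 and ctrl 10. Leaving out single libraries gave 0 to 3, with 0 without cold 12, cold 16, ctrl 5, ctrl 6 or ctrl 10 and 3 without cold 7. No enzyme gene was lower under any alternative. Over all genes, 415 higher and 101 lower became 696 and 228 without the filter, 1036 and 304 with DESeq2, 255 and 51 with protein-coding transcripts only, and 353 and 58 with the length offset. They became 1145 and 85 without ctrl 5 and cold 7, and 665 and 83 without cold 7 and ctrl 10. Single libraries left out gave 0 to 929 higher and 0 to 161 lower, with 0 in both directions without cold 12, ctrl 6 or ctrl 10, 2 and 1 without cold 16, 648 and 47 without ctrl 5, and 929 and 161 without cold 7. The causes were not tested. The difference in the Pkm M1 share kept its sign by estimated counts (0.23 points) and protein-coding transcripts (0.19), and ranged from -0.60 to 1.16 with single libraries left out, turning negative without cold 12 (-0.60) and without ctrl 6 (-0.58). Scaling moved the median of all genes by under 0.1 on the log2 scale. Of the single-gene results, 1016 kept their side of the threshold, 35 lost it and 14 gained it. Most of the 1016 were of genes not called with all libraries, for which staying uncalled says little. All 35 losses fell on the called pathway genes Aldoc, Idh3a, Slc16a3, Mdh1b and H6pd. No called gene turned its sign. Aldoc rests on 8 to 23 counts per ctrl library, and the 8 in ctrl 10 lie under the filter's minimum of 10.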
